A study of Mus musculus with 20 samples.

Results

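RNA of mouse testis on postnatal day 3 was compared with RNA of mouse testis on the day of birth, day 0. The comparison rests on 4 of the 20 single-colour oligonucleotide arrays of a time course that ran to day 35: those titled as replicates 1 and 2 of day 0 and replicates 1 and 2 of day 3. The arrays were assigned to the days by these titles alone, and the other 16 arrays entered the fit as further days and so shared the estimate of the spread. The 2 arrays of day 6 were used for a second question, whether the change over the first 3 days differed from the change over the next 3 days. Both groups were whole testis without treatment named in the labels, extracted with Trizol and labelled with biotin; the labels give no strain, no dissection detail and no number of animals per array. Nothing in them says that replicates came from separate litters. The p-values therefore measure the spread between arrays of the same day, pooled over the 20 arrays, and this spread may be technical.

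At birth the germ cells of the mouse testis are prospermatogonia, also called gonocytes, which have stopped dividing and are completing the de novo DNA methylation of the male germ line. In the days that follow they resume division and move to the edge of the tubule, where they give rise to spermatogonial stem cells and to the first differentiating spermatogonia. Around them, immature Sertoli cells multiply, peritubular myoid cells mature, and the fetal Leydig cells that made androgen before birth become a smaller part of the organ. The piRNA pathway, in which Piwi proteins and Tudor domain proteins process small RNAs that guide the silencing of transposons, is active in prospermatogonia.

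Each array gave 1 intensity per probe set on a linear scale. Differences below are in log2(intensity + 7.83), a constant at the pooled 20th percentile of intensity, which understates changes of dim genes. Intensities are given per array, with replicate 1 before replicate 2, or as mean ± SD with n = 2 arrays. SE is the standard error of the log2 difference, and adjusted p is that of limma's moderated test after Benjamini-Hochberg adjustment over the 16429 genes tested. Calls needed both an adjusted p under 0.05 and a difference of 2-fold or more. In whole testis, fewer cells of a type and less RNA per cell cannot be told apart, and this holds for every difference below. Across genes, log2 intensities correlated with r = 0.982 between the day 0 arrays, 0.985 between the day 3 arrays, and 0.977 to 0.978 between days (genes are not independent replicates). The median SD of replicates over genes was 0.116 on day 0 and 0.112 on day 3 (log2). It was 0.182 on day 30 and 0.163 on day 35, which enter the same estimate of the spread. Control probe sets for the 3′ and 5′ parts of Gapdh lay at 4411 to 4721 and 4979 to 5497 on the 4 arrays.

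Between day 0 and day 3, 27 genes were called higher (0.164% of 16429) and 67 lower (0.408%), in all 94 (0.572%). Of the 94, 8 passed 4-fold. The adjusted p alone was met by 169 higher genes (1.03%) and 194 lower genes (1.18%). Both day 3 arrays lay above both day 0 arrays for 3570 genes (21.7%) and below them for 4224 (25.7%). The median difference of all genes tested was −0.02, and 0.09 once each array was set to a common median. The balance of directions moved with the scaling: 28.7% of the calls were higher as deposited, 43.5% with a common median and 41.5% under quantile normalization. Many falls lay among dim genes. Of the 67, 37 lay among the 3286 genes of mean intensity between about 13.8 and 71.6, where the median difference was −0.12 as deposited and −0.01 under quantile normalization. Leaving out each of the 4 arrays in turn kept 12 of the 27 higher calls and 14 of the 67 lower calls throughout. The number of lower calls fell to 24 without day 0 replicate 1, 30 without day 0 replicate 2, 43 without day 3 replicate 1 and 39 without day 3 replicate 2, and the number of higher calls was 17, 30, 16 and 20 without the same arrays in turn.

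**Figure D1:**
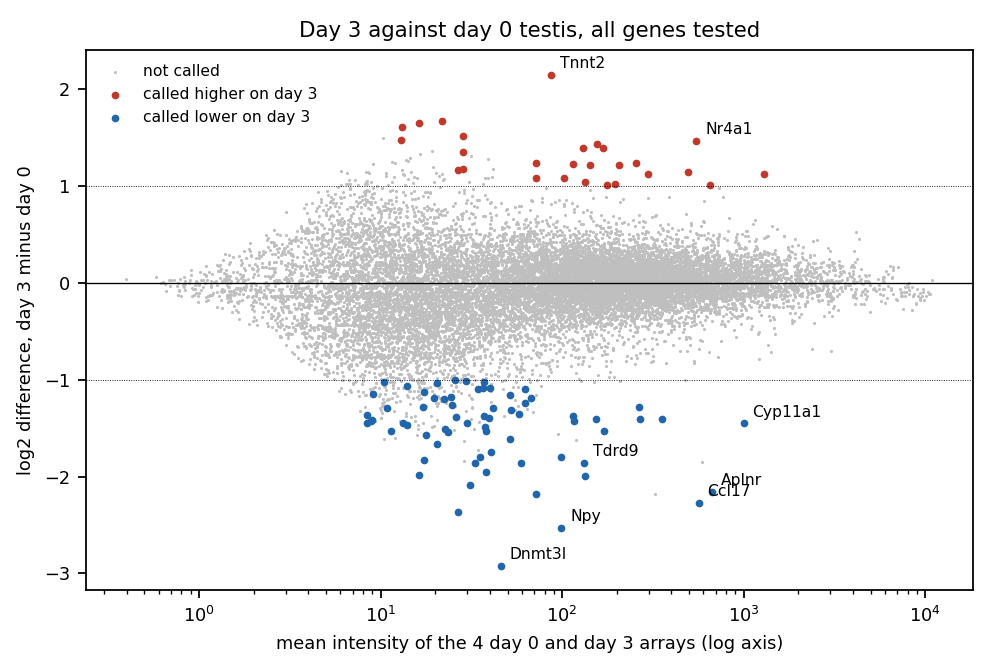
Log2 difference between day 3 and day 0 (vertical axis) against the mean intensity of the 4 arrays on a log axis, 1 point for each of the 16429 genes tested. Red points are the 27 genes called higher on day 3 and blue points the 67 called lower; dotted lines mark 2-fold. Dnmt3l, at −2.92, is the lowest called gene and Tnnt2, at 2.15, the highest.

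The germ-line regulator Dnmt3l had the largest log2 difference among the genes tested at the constant of 7.83. It encodes a catalytically inactive partner of the de novo DNA methyltransferases and is made in prospermatogonia. Its intensities were 95 and 78.8 on day 0 and 5.83 and 3.56 on day 3, a fall of −2.92 ± 0.36 (SE, adjusted p = 7.97e-05). Both day 3 values lay under the constant added before the logarithm, so the size of the fall depends on that constant, and it ran from −3.84 to −1.32 over the alternatives tried. That of Npy, given below, ran from −2.80 to −2.11, so the first rank of Dnmt3l also depends on the constant. Without any 1 of the 4 arrays the fall of Dnmt3l lay between −3.05 and −2.79. Among 15 tested genes of DNA methylation, Dnmt3l was the only one called. Dnmt3a, the catalytic partner, stood at 417 and 489 on day 0 and 413 and 426 on day 3, and Dnmt1, the maintenance enzyme, at 444 and 478 and then 461 and 508.

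Tdrd9, a Tudor domain helicase of the piRNA pathway, went from 211 and 209 on day 0 to 61.2 and 44.2 on day 3, a fall of −1.86 ± 0.15 (adjusted p = 6.42e-07). The groups lay far apart, and the difference stayed between −2.07 and −1.66 without any 1 of the 4 arrays. Brdt, a bromodomain protein of male germ cells, gave 109 and 86.5 and then 19.8 and 22.7 (−1.86 ± 0.17, adjusted p = 3.84e-06). Other probe sets of Brdt gave −0.24 and −0.99, and its call ended, at −0.24, when the probe set brightest on days 0 and 3 represented the gene. Dppa4, a nuclear protein of pluripotent and early germ cells, gave 420 and 367 and then 136 and 153 (−1.40 ± 0.24, adjusted p = 0.00317), with the call lost without day 0 replicate 1 (−1.30, adjusted p = 0.0595). Its relative Dppa2 went from 54.4 and 45.1 to 0.92 and 6.2 (−2.37 ± 0.53, adjusted p = 0.0196), a call that ended without any 1 of the 4 arrays. Both its day 3 values lay under the constant, the difference ran from −3.53 to −0.52 over the alternatives, and another probe set of Dppa2 gave −0.85. Morc1, which is needed for transposon silencing in the male germ line, gave 426 and 333 and then 167 and 135 (−1.28 ± 0.22, adjusted p = 0.00274). Its call ended without day 0 replicate 1 (−1.11) and without day 3 replicate 2 (−1.14).

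Genes of prospermatogonia and of the piRNA pathway lay lower as groups. Of 32 tested prospermatogonial genes, 5 were called lower and none higher, against 0.408% and 0.164% of all genes, and their median difference was −0.48 against −0.02. Both day 3 arrays lay below both day 0 arrays for 22 of the 32 (68.8%, against 25.7% of all genes). Of 20 tested piRNA genes, 2 were called lower and none higher, the median was −0.50, and 16 (80.0%) had day 3 below day 0. Both lists share Tdrd9, Morc1, Gtsf1, Mael and others, so they are not separate evidence. Summed over the list, intensity of prospermatogonial genes was 7356 and 7062 on day 0 and 5162 and 5100 on day 3. That of piRNA genes was 4167 and 3968, then 2630 and 2528. The medians stayed between −0.51 and −0.36 and between −0.62 and −0.34 over the alternatives tried.

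Members that were not called spread widely. Gtsf1, a piRNA cofactor, met the adjusted p but not the 2-fold limit, with 660 and 605 on day 0 and 281 and 347 on day 3 (adjusted p = 6.2e-06). Mael (941 and 874, then 546 and 520, adjusted p = 3.79e-06), Piwil2 (218 and 229, then 134 and 128, adjusted p = 5.8e-05) and the RNA-binding Dazl (1381 and 1487, then 1037 and 965, adjusted p = 0.0292) likewise met the adjusted p at under 2-fold. Ddx4, the germ cell helicase known as Vasa, stood at 514 and 436 and then 406 and 367, a difference of −0.29 ± 0.09 that did not pass (adjusted p = 0.133). Pou5f1, the pluripotency factor Oct4, had 59.3 and 64.9 and then 49.1 and 43.7 (adjusted p = 0.849). The arrays of Piwil4, the Piwi protein of fetal prospermatogonia, overlapped at 25 and 39.1 and then 32.3 and 15.8, on a dim probe set. In the other direction, Tdrd12 had 32.9 and 46.4 and then 72.4 and 61.4 (0.66, adjusted p = 0.0151). Pdpn, podoplanin, on the prospermatogonial list but also made by other cells, had 429 and 423 and then 725 and 827 (0.85 ± 0.17, adjusted p = 0.00839). Of the genes in this paragraph, Gtsf1, Mael, Piwil2 and Tdrd12 were chosen after their values were seen. Nanos2 and Nanos3 had no probe set assigned to them alone and are not analysed here.

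**Figure D2:**
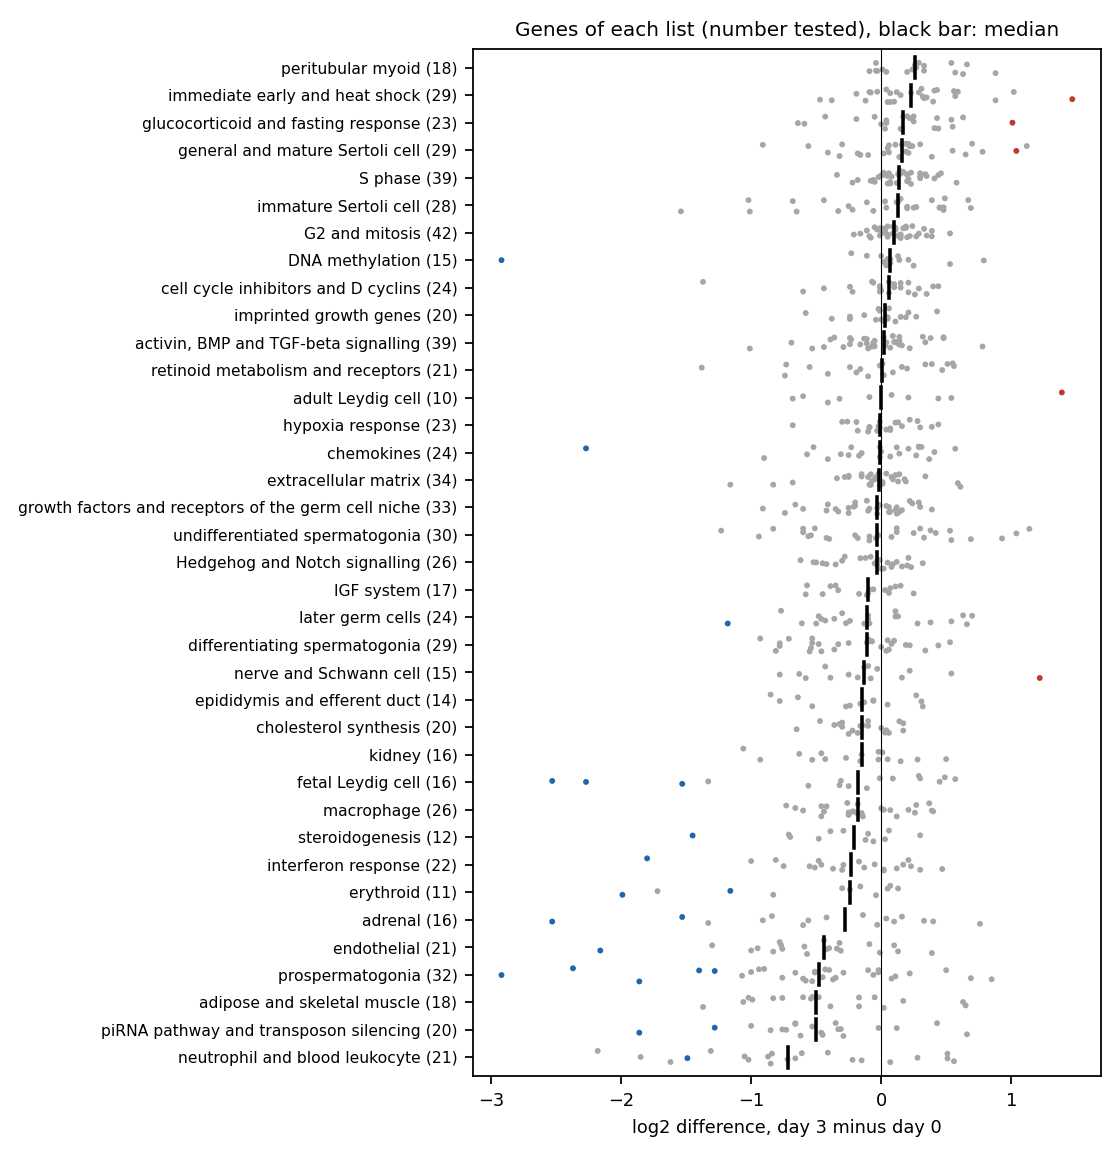
Log2 difference between day 3 and day 0 for every tested gene of 37 gene lists, 1 row a list, ordered by its median (black bar) with the number tested in brackets. Red points were called higher and blue points called lower; a gene may be on several lists. Prospermatogonial and piRNA genes have medians of −0.48 and −0.50, and peritubular myoid genes lie at the top at 0.26.

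Some germ-line transcripts that were lower on day 3 were higher again on day 6. The change over days 3 to 6 was compared with that over days 0 to 3 in 1 contrast, to which the 2 day 3 arrays contribute on both sides. The later change was more positive for 228 genes (1.39% of 16429) and more negative for 24 (0.146%), in all 252 (1.53%). Leaving out each of the 6 arrays in turn kept 82 and 4 of them throughout, and the total of 252 fell to 160 without day 3 replicate 2. For 212 of the 228, the mean went down from day 0 to day 3 and up again to day 6, and for 166 of these it ended above day 0. Choice by this contrast favours that shape, because low day 3 arrays raise it on both sides. The 228 include 14 of the 20 piRNA genes, 13 of the 32 prospermatogonial genes, 13 of 29 genes of differentiating spermatogonia, 4 of 30 of undifferentiated spermatogonia and 5 of 24 of later germ cells. In all, 39 of the 121 genes on those 5 lists were among them. None of 39 S phase genes or 42 genes of G2 and mitosis was, which is near the 1.39% of all genes.

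Sycp3, a protein of the meiotic chromosome axis that prospermatogonia and spermatogonia also transcribe, had 232 and 216 on day 0, 134 and 115 on day 3 and 486 and 458 on day 6. Its 2 changes differed by 2.67 ± 0.16 (adjusted p = 8.53e-09). For Tdrd9 the day 6 arrays gave 159 and 133, and the changes differed by 3.22 ± 0.25 (adjusted p = 2.77e-07). Reln, the secreted glycoprotein reelin, stood at 173 and 174, then 59.6 and 58.7, then 170 and 181, with a difference of 2.88 ± 0.23 (adjusted p = 3.26e-07). Map7d2, a microtubule-associated protein encoded on the X chromosome, went from 101 and 91.9 through 33.6 and 42.4 to 162 and 150 (3.04 ± 0.46, adjusted p = 0.000547). Phyhipl went from 41.9 and 51.2 through 5.95 and 20.7 to 52.3 and 51.0 (3.03 ± 0.39, adjusted p = 9e-05). In each of these 5 genes both day 3 arrays were the lowest of the 6, a shape that their choice by this contrast favours. Dnmt3l also differed, by 3.75 ± 0.62 (adjusted p = 0.00158), yet at 17.7 and 11.4 its day 6 arrays stayed far below day 0. Calls for the difference held without each of the 6 arrays for all 6 genes, which was a condition of their selection. The difference of Phyhipl ranged from 1.98 to 4.08 without 1 of the 6 arrays. The call of Reln ended when all its probe sets were averaged (1.15), the other set lying at an intensity of 2.61. Dazl on day 6 gave 2480 and 2272, and Ddx4 830 and 816, with differences of 1.75 ± 0.21 (adjusted p = 3.78e-05) and 1.37 ± 0.16 (adjusted p = 3.41e-05).

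The start-site regions of these genes are shown because the letters below were more frequent before the 228 genes with a more positive later change, whose shared direction the selection fixes, than before all genes tested. Promoters were taken from RefSeq on build GRCm38.p6, as the 250 bases before each start site. Of the 16429 genes tested, 13123 had one. Searched on both strands, the letters CACGTG stood before 44 of the 193 such genes with a promoter (22.8%), 1197 of the 13123 (9.12%) and 1978 of all 32851 promoters in the table (6.02%). They stood before 7 of 56 genes called lower (12.5%) and 0 of 21 called higher. CACGTG was picked from 13 words after their counts were seen. Of the other words, a palindrome rich in CG stood before 7 of the 193 (3.63%) and 107 of the 13123 (0.815%), and CCAAT, by contrast, before 40.9% and 39.5%. Mean GC content was 60.4% in the 193 and 58.4% in the 13123. A match describes the sequence only and says nothing of which protein binds there. Of the 6 genes named above for their more positive later change, Tdrd9, Sycp3, Reln and Dnmt3l hold CACGTG, in capitals below. Each line ends at the base before the start site and runs 5′ to 3′ along the strand of the gene. They lie at chr12:111971309-111971558 (Tdrd9, plus strand), chr10:88459337-88459586 (Sycp3, plus strand), chr5:22344706-22344955 (Reln, minus strand) and chr10:78049592-78049841 (Dnmt3l, plus strand, 1 of 3 start sites).
Tdrd9: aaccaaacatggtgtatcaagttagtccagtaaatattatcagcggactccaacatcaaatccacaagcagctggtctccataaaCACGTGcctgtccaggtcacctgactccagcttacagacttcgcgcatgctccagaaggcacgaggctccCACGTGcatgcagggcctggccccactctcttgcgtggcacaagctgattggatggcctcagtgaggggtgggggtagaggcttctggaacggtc
Sycp3: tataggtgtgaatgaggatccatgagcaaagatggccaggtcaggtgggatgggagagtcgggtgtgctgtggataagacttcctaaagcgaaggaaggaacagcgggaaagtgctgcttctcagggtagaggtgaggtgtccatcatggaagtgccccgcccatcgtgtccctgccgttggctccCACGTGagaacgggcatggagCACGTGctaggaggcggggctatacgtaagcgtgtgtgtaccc
Reln: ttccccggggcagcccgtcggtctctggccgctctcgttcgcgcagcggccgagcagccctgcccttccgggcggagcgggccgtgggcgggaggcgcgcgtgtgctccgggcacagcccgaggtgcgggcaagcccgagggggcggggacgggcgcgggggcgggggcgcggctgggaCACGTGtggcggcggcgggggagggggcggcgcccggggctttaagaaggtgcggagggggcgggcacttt
Dnmt3l: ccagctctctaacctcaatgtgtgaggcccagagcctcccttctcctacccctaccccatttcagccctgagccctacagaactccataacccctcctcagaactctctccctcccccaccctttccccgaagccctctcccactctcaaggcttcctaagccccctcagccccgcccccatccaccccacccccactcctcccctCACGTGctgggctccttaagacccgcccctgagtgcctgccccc
In Tdrd9 the words begin 165 and 95 bases before the start site, in Sycp3 64 and 43 bases, in Reln 71 bases and in Dnmt3l 44 bases. The listed promoters of Map7d2 and Phyhipl do not hold these letters within 250 bases.

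Genes of the spermatogonial states that follow showed no call between days 0 and 3. Over all genes 0.572% were called, so the absence of a call in lists of this size says little. Of 30 tested genes of undifferentiated spermatogonia, 14 differences were positive and 16 negative, with a median of −0.03. Zbtb16, a transcription factor of stem and progenitor spermatogonia, had 98.5 and 98.8 on day 0 and 147 and 146 on day 3 (0.54 ± 0.18, adjusted p = 0.159). On day 6 it had 421 and 382. Neurog3, a factor of progenitor spermatogonia, had 1.02 and 3.89 and then 15.9 and 13.4 (1.14 ± 0.44, adjusted p = 0.234), values about the added constant, and 105 and 80.2 on day 6. It was called in 3 of the alternatives (array weights, only days 0 to 14, and without day 35 replicate 1). Gfra1, the receptor of GDNF, and Ret, its signalling partner, had adjusted p = 0.770 and 0.542, with day 3 above day 0 for Gfra1 (111 and 128 against 88.8 and 102) and below for Ret (32.1 and 36.7 against 53.6 and 58.2). Sall4, a zinc finger protein of these cells, had 200 and 226 and then 142 and 152, and 356 and 371 on day 6, its 2 changes differing by 1.78 ± 0.38 (adjusted p = 0.0122).

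In the list of differentiating spermatogonia, none of 29 genes was called on day 3 and the median was −0.11. Differences were negative for 19 of the 29, and both day 3 arrays lay below both day 0 arrays for 13 (44.8%, against 25.7% of all genes) and above them for 5. The adjusted p alone was met by 4 as lower, Sycp3 among them (adjusted p = 4.69e-05), and by none as higher. Stra8, which responds to retinoic acid and is needed to enter meiosis, had 54.6 and 58.2 on day 0, 69.0 and 78.2 on day 3 and 456 and 456 on day 6. The first step did not pass (0.34 ± 0.11, adjusted p = 0.138), and the second was larger by 2.17 ± 0.19 (adjusted p = 1.15e-06). Kit, the receptor of differentiating spermatogonia, overlapped between days 0 and 3, with 37.1 and 51.9 and then 46.8 and 58.9 (adjusted p = 0.907), and had 173 and 150 on day 6. Of 24 genes of later germ cells, which these ages do not yet hold, 1 was called lower, the lactate dehydrogenase Ldhc (35.7 and 38.1, then 13.3 and 10.5, adjusted p = 0.00606). Its call ended under 9 of the alternatives, among them quantile normalization and leaving out any of 3 of the 4 arrays.

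Division genes of the whole organ showed small differences. None of 39 S phase genes and none of 42 genes of G2 and mitosis was called. Their medians were 0.14 and 0.10, against −0.02 for all genes, with day 3 above day 0 on both arrays for 21 of 39 (53.8%) and 23 of 42 (54.8%), against 21.7%. The medians stayed between 0.07 and 0.25 and between 0.06 and 0.21 over the alternatives. The adjusted p was met below 2-fold by the replication helicase subunit Mcm4 (726 and 655, then 966 and 907, adjusted p = 0.0491), the kinetochore genes Nuf2 (235 and 251, then 365 and 342, adjusted p = 0.00577) and Cenpf (533 and 526, then 685 and 672, adjusted p = 0.0148), named after their values were seen. Pcna, the replication clamp, overlapped between the days at 3897 and 3588 and then 4301 and 3589. Mki67, the antigen of cycling cells, had 1623 and 1612 and then 1532 and 1602 (−0.05 ± 0.12, adjusted p = 0.950). Among 24 cell cycle inhibitors and D cyclins none was called. Cdkn1c and Cdkn1b, inhibitors known as p57 and p27, had adjusted p = 0.654 and 0.967. In testis RNA the dividing Sertoli and interstitial cells contribute to these levels on both days, and the germ cell part was not measured apart.

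Some Leydig cell transcripts were lower on day 3. Cyp11a1, the side-chain cleavage enzyme that opens steroid synthesis, had 1385 and 1546 on day 0 and 491 and 571 on day 3, a fall of −1.45 ± 0.15 (adjusted p = 1.56e-05), between −1.56 and −1.35 without any 1 of the 4 arrays. Other probe sets of Cyp11a1 were dim, at mean intensities of 33.4 and 6.18, with differences of −0.08 and 0.91, and averaging all 3 ended the call (−0.21). Cyp17a1, which makes androgen precursors, had 1799 and 1704 and then 1085 and 1053 (−0.71 ± 0.12, adjusted p = 0.00222), and Hsd3b1 had 3663 and 3806 and then 2389 and 2196 (−0.70, adjusted p = 0.00708), both under 2-fold. Star, the cholesterol carrier, had 368 and 366 and then 323 and 276, which did not pass (adjusted p = 0.589). Hsd17b3, which makes testosterone, overlapped at 1243 and 1316 and then 1264 and 1096 (adjusted p = 0.823). Of 12 tested steroidogenic genes, 1 was called lower and none higher, against 0.408% and 0.164% of all genes. At such shares the absence of a higher call says little. The adjusted p alone was met by 5 as lower and none as higher, against 1.18% and 1.03%. The median was −0.21, against −0.02. The summed intensity of the list was 15825 and 16050, then 12509 and 11894. Insl3 and Lhcgr have no probe set of their own and are not analysed here. Hsd3b1 was named after its values were seen.

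The list of fetal Leydig cells held 3 called genes among 16, all lower, beside 0.408% of all genes called lower. Npy, neuropeptide Y, went from 174 and 174 to 24.0 and 23.1 (−2.53 ± 0.42, adjusted p = 0.00209). Ccl17, a chemokine, went from 1154 and 727 to 149 and 227 (−2.27 ± 0.34, adjusted p = 0.000749), and on day 6 to 22.4 and 13.2. The day 0 arrays of Ccl17 differ most among the genes of this paragraph, yet its difference lay between −2.60 and −1.94 without any 1 of the 4 arrays. Cyp21a1, a steroid 21-hydroxylase of adrenal cortex and fetal Leydig cells, had 242 and 269 and then 81.4 and 85.5 (−1.53 ± 0.29, adjusted p = 0.00606), and its call ended without any 1 of the 4 arrays. The list's median was −0.18, and 8 of the 16 had day 3 below day 0 on both arrays (against 25.7% of all genes). Mgarp met the adjusted p in the other direction (456 and 483, then 668 and 652, adjusted p = 0.0137). Npy and Cyp21a1 are also adrenal genes. The adrenal list had 2 called genes of 16, these same ones. Its summed intensity was 1078 and 1186 and then 694 and 822, a fall of which these called genes make up a large part. Its median was −0.28, between −0.51 and 0.00 over the alternatives. Day 3 lay below day 0 on both arrays for 8 of the 16 and above for 2. Of 4 list members known from the adrenal, Pnmt, which makes adrenaline, was the brightest and overlapped between the days at 248 and 302 and then 231 and 310, Cyp11b2 lay at 25.5 and 30.3 and then 14.1 and 10.2, Th at 10.1 and 9.48 and then 14.5 and 16.5, and Dbh at 10.4 and 16.7 and then 14.1 and 24.7. The part of adrenal tissue in these differences was not tested.

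Called markers of vessels and blood were lower on day 3 too. Aplnr, the apelin receptor of endothelial cells and their progenitors, had 1023 and 1183 on day 0 and 233 and 247 on day 3 (−2.16 ± 0.26, adjusted p = 5.41e-05), and another probe set gave −1.27 ± 0.42. It was the only called gene of 21 endothelial genes, whose median was −0.44, with 16 of 21 (76.2%) below day 0 on both arrays. Over all genes, for comparison with each list of this paragraph, 0.408% were called lower and 25.7% lay below day 0 on both arrays. The median of all genes was −0.02. Pecam1, the endothelial adhesion molecule CD31, had 107 and 93.8 and then 65.4 and 42.5 (adjusted p = 0.453). Summed endothelial intensity was 3417 and 3817, then 2145 and 2390, a fall of which Aplnr alone makes up a large part. In the list of neutrophils and other blood leukocytes the median was −0.72 and 1 of 21 genes was called, Lcn2 (67.9 and 49.9, then 11.3 and 21.0, adjusted p = 0.0059), a call that ended without day 0 replicate 1 (−1.30) and without day 3 replicate 1 (−1.20). S100a8, a calcium-binding protein of neutrophils, had 1152 and 711 and then 193 and 312, which did not pass (−1.85 ± 0.75, adjusted p = 0.263) but was called in a fit to the days compared alone. The summed intensity of its list was 2704 and 1763, then 732 and 890. Among 11 erythroid genes, Alas2, the haem synthesis enzyme of red cell precursors (209 and 226, then 48.7 and 49.1, adjusted p = 0.00648), and Car2, a carbonic anhydrase (69.2 and 78.1, then 23.5 and 34.6, adjusted p = 0.0384), were called lower, and both calls ended without any 1 of the 4 arrays. Macrophage genes had no call among 26, with a median of −0.18, and Csf1r, the receptor of macrophage growth factor, had 175 and 187 and then 158 and 149 (adjusted p = 0.402). The part of blood in the other differences was not tested.

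**Figure D3:**
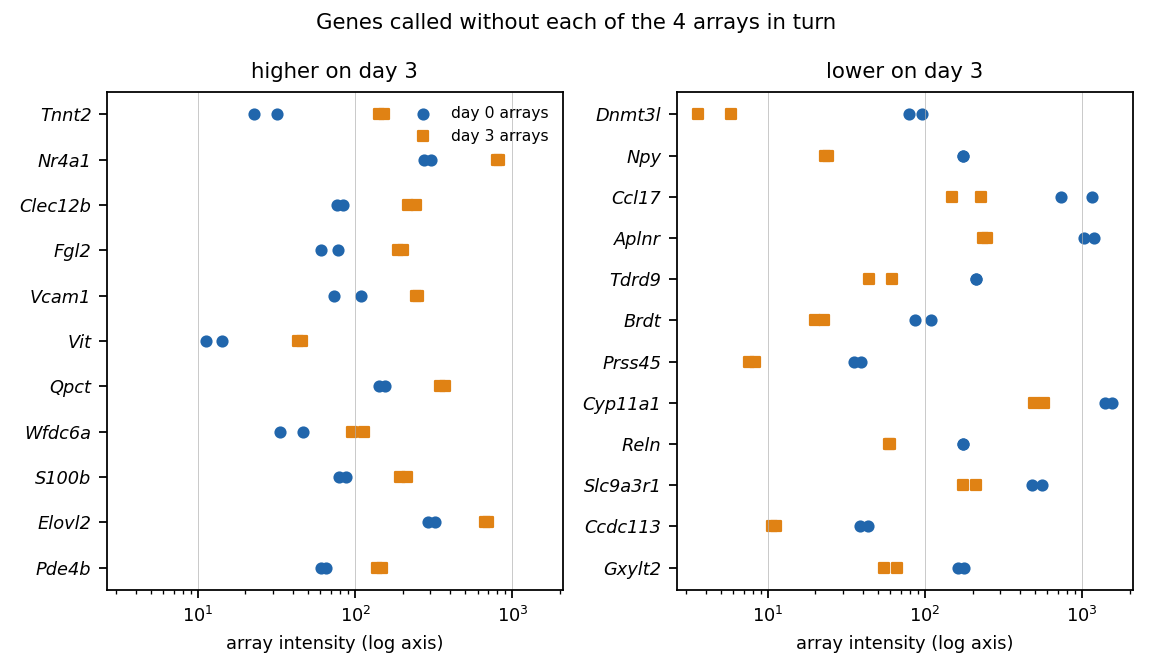
Intensity on a log axis of the 4 arrays for the 11 largest higher (left) and 12 largest lower (right) calls that held without each of the 4 arrays in turn. Blue circles are day 0 arrays and orange squares day 3 arrays, 2 of each. The groups are apart in every gene shown, which was a condition of their selection. Ccl17 has the widest gap between its day 0 arrays on the right, 1154 and 727.

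Other falls that held without each of the 4 arrays follow. Slc9a3r1, a scaffold of the apical membrane, had 481 and 557 and then 211 and 174 (−1.40 ± 0.13, adjusted p = 3.79e-06). Gxylt2, a xylosyltransferase that acts on Notch, had 161 and 176 and then 54.7 and 66.0 (−1.37 ± 0.23, adjusted p = 0.00252). The serine protease gene Prss45 (35.2 and 38.9, then 8.25 and 7.54) and Ccdc113, a ciliary protein (43.5 and 38.3, then 10.6 and 11.2), were dim, and their calls ended with a floor at the pooled median of 34.6 and with a larger constant. Beyond the 12 falls shown, 2 more held without each array: the cilium genes Spaca9 (88.4 and 67.9, then 29.4 and 24.0) and Rsph1 (52.2 and 52.8, then 22.3 and 21.6). Later in the course Prss45, Ccdc113, Spaca9 and Rsph1 rose far above day 0, with day 20 means of 493, 862, 315 and 4678. Those of Slc9a3r1 and Gxylt2, at 126 and 79.8, lay below day 0.

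The largest rise was that of Tnnt2, the cardiac form of troponin T, from 31.7 and 22.6 on day 0 to 141 and 153 on day 3 (2.15 ± 0.20, adjusted p = 3.89e-06). It lay between 1.97 and 2.34 without any 1 of the 4 arrays, and other probe sets gave 1.58 ± 0.21 and, at a mean intensity of 7.75, −0.35 ± 0.47. The mean of all 3 gave 1.13, still called. On day 6 it reached 219 and 231. Nr4a1, an orphan nuclear receptor induced by trophic signals, went from 273 and 304 to 802 and 816 (1.47 ± 0.15, adjusted p = 1.19e-05) and was back at 422 and 429 on day 6. Its 2 changes differed by −2.38 ± 0.26 (adjusted p = 1.58e-05). Nr4a1 was the only call among 29 immediate early and heat shock genes, whose median was 0.23. Of the others, Fos had 70.1 and 67.1 and then 92.5 and 94.5, and Egr1 overlapped at 907 and 959 and then 809 and 907.

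The other rises that held without each of the 4 arrays came from varied genes. Vcam1, an adhesion molecule listed here for Leydig cells and also made by other stromal cells, had 108 and 73.4 and then 252 and 242 (1.39 ± 0.19, adjusted p = 0.000413). Its other probe sets gave 0.53 and 0.67, and the mean of all 3 probe sets ended the call (0.86). Vit, the matrix protein vitrin, had 11.2 and 14.1 and then 45.5 and 43.4, a dim gene whose call ended with a floor at the pooled median. Fgl2, a fibrinogen-like protein, had 77.3 and 60.8 and then 201 and 186 (1.39 ± 0.14, adjusted p = 6.2e-06). The lectin-like receptor gene Clec12b had 83.7 and 77.0 and then 243 and 217 (1.43 ± 0.11, adjusted p = 6.42e-07). Qpct, which forms pyroglutamate on peptides, had 154 and 141 and then 372 and 348, Wfdc6a, of the protease inhibitor-like WAP family, 46.5 and 33.4 and then 113 and 95.7, and S100b, a calcium-binding protein of glia and other cells, 86.7 and 79.0 and then 193 and 213. Elovl2, which lengthens polyunsaturated fatty acids, had 320 and 291 and then 704 and 669 (1.15 ± 0.09, adjusted p = 6.42e-07). Pde4b, a phosphodiesterase that degrades cyclic AMP, had 65.3 and 60.6 and then 147 and 137 (1.08 ± 0.17, adjusted p = 0.00138), with other probe sets at 0.84, 0.93, −0.34, −0.25 and −0.50, the last 3 dim. Its call ended with the mean of all probe sets (0.29, adjusted p = 0.736) and with a larger constant (0.95). The groups of all these genes lay apart, which was a condition of their selection. The day 6 means of Clec12b, Fgl2, Qpct and Wfdc6a were 450, 350, 585 and 205, each above both of its day 3 arrays.

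A few genes were higher on day 3 than on days 0 and 6. Efhd2, a calcium-binding actin regulator, had 817 and 812 on day 0, 1612 and 1962 on day 3 and 595 and 359 on day 6. Its rise (1.12 ± 0.17, adjusted p = 0.000749) lost the 2-fold limit without day 3 replicate 2 (0.98), and its 2 changes differed by −3.04 ± 0.29 (adjusted p = 2.31e-06). The other probe set of Efhd2 gave 0.33 for day 3 against day 0. Pdpn fell back to 300 and 282 on day 6, and its changes differed by −2.24 ± 0.29 (adjusted p = 9e-05). Pde4b returned to 91.4 and 76.4 (−1.79 ± 0.30, adjusted p = 0.00148), a difference lost when all its probe sets, most of them dim, were averaged (−0.33). Later means came back near those of day 3 for Efhd2 (1820 on day 10), Pdpn (730 on day 8) and Pde4b (147 on day 35). With Nr4a1, these are the 4 more negative differences that held without each of the 6 arrays.

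The Sertoli cell lists held 1 called gene, beside 0.164% of all genes called higher. Of 29 genes of general and mature Sertoli cells, 1 was called, Cldn11, the claudin of the Sertoli cell barrier, which had 67.7 and 103 and then 190 and 172 (1.04 ± 0.13, adjusted p = 6.97e-05). It passed 2-fold narrowly, and fell short without day 0 replicate 1 (0.77) and without day 3 replicate 1 (0.97). On day 6 it had 538 and 511. Of 28 genes of immature Sertoli cells none was called and 6 met the adjusted p as higher, none as lower (against 1.03% and 1.18% of all genes). Inhbb, the activin B subunit, was among these (1314 and 1469, then 1902 and 1967, 0.48 ± 0.09, adjusted p = 0.00596). Its relative Inhba had 1296 and 1258 and then 978 and 898, which did not pass (adjusted p = 0.447). Amh, anti-Müllerian hormone, overlapped at 684 and 783 and then 629 and 894. Sox9, the factor that starts Sertoli cell fate, had 266 and 290 and then 349 and 387 (adjusted p = 0.249), and Fshr, the receptor of follicle-stimulating hormone, 157 and 175 and then 199 and 196 (adjusted p = 0.824). Cyp26b1, which degrades retinoic acid, had 356 and 347 and then 525 and 514 (0.55 ± 0.16, adjusted p = 0.0767). The keratin genes Krt8 and Krt18 of fetal Sertoli cells, chosen after their values were seen, had 341 and 263 and then 184 and 192 and 306 and 257 and then 134 and 136, with adjusted p = 0.211 and 0.178.

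Peritubular myoid genes had the highest median of the 37 lists, 0.26, with day 3 above day 0 on both arrays for 12 of 18 (66.7%, against 21.7%) and no call. The median lay between 0.14 and 0.37 over the alternatives. Myh11, smooth muscle myosin, met the adjusted p with 203 and 213 on day 0 and 379 and 398 on day 3 (0.88, adjusted p = 0.00404), as did the kinase Mylk (817 and 864, then 1185 and 1272, adjusted p = 0.00131), both named after their values were seen. Acta2, smooth muscle actin, had 3559 and 3596 and then 4748 and 4249 (0.33 ± 0.08, adjusted p = 0.0277). Skeletal muscle and fat genes, by contrast, had a median of −0.50 among 18 dim genes with no call, and a summed intensity of 621 and 656, then 595 and 582. With values floored at the pooled median, the medians of the muscle and fat list and of the neutrophil list became 0.00. Among 34 extracellular matrix genes none was called (median −0.02), and Col1a1, a chain of type I collagen, had 2716 and 3054 and then 3090 and 3473 (adjusted p = 0.727). Igf2, the imprinted growth factor, stood at 2578 and 2641 and then 2689 and 2753 (adjusted p = 0.950), and none of 20 imprinted genes was called.

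The remaining lists gave at most 1 call each, beside 0.572% of all genes. Single calls came from the interferon response list (Rsad2, an antiviral protein, 99.2 and 219, then 51.1 and 26.2, adjusted p = 0.0307; median of 22 genes −0.23) and the glucocorticoid and fasting list (Sult1a1, a sulfotransferase, 117 and 112, then 263 and 215, adjusted p = 0.0177; median of 23 genes 0.17). The call of Rsad2, whose day 0 arrays differ widely, ended without day 0 replicate 2, day 3 replicate 1 or day 3 replicate 2, and that of Sult1a1 without any 1 of the 4 arrays. Other probe sets of Rsad2 gave −0.46 ± 0.47 and −0.68 ± 0.43, and averaging all its probe sets ended the call (−0.98). The called genes of the chemokine list (1 of 24, median −0.01), the nerve and Schwann cell list (1 of 15, −0.13) and the adult Leydig list (1 of 10, 0.00) were Ccl17, S100b and Vcam1, given above. None was called among 20 genes of cholesterol synthesis (−0.15), 23 of the hypoxia response (−0.01), 21 of retinoid metabolism (0.01), 26 of Hedgehog and Notch signalling (−0.03), 39 of activin, BMP and TGF-beta signalling (0.02), 33 of growth factors of the germ cell niche (−0.03) or 17 of the IGF system (−0.10). Lists of kidney (16 genes, −0.15) and of epididymis and efferent duct (14, −0.15) also held none, and their summed intensities were 667 and 609, then 491 and 504, and 1226 and 1242, then 1200 and 1234.

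**Figure D4:**
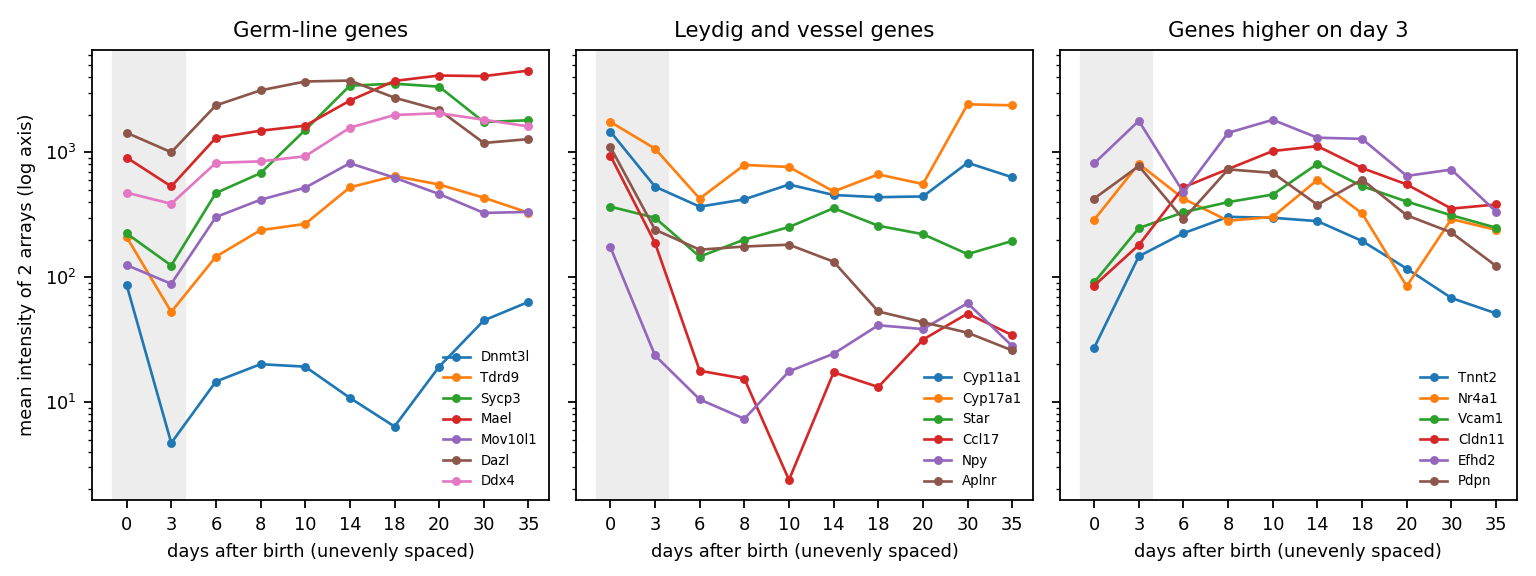
Mean intensity of the 2 arrays of each day (log axis) from day 0 to day 35 for 7 germ-line genes, 6 Leydig and vessel genes and 6 genes higher on day 3; days are unevenly spaced on the horizontal axis, and grey marks the days compared. In the left panel all 7 means, of genes picked for display without a rule, drop from day 0 to day 3 and rise to day 6 (Sycp3 from 224 to 124 to 472). Other germ-line genes, not shown, went otherwise, such as Dppa4 (394 to 144 to 123) and Stra8 (56.4 to 73.6 to 456). In the middle Ccl17 goes from 941 to 188 to 17.8, and on the right Nr4a1 peaks at 809 on day 3.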

How the data were processed

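Total RNA of whole testis was hybridised to 20 one-colour arrays (10 days, 2 arrays a day) after one-cycle 3′ amplification, per the labels' protocols. The deposited values are linear intensities, 1 for every probe set of an array, and share a 2% trimmed mean over all 20 arrays. The sources used here do not name the summarising software. No further normalization was applied. The array titled day 18 replicate 2 carries day 0 in another label, was analysed under its title and is not in the day 0 group.

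Of 45101 probe sets, 64 are controls, 34945 others carry 1 gene symbol in GEO's platform annotation, 932 carry several and 9160 are unlisted there. Symbols were updated by Entrez identifier to RefSeq GRCm38.p6 for 34741. For each of 18193 genes the single-symbol probe set of highest mean log2 intensity was kept. The 16429 genes above the 40th percentile of an array on at least 2 arrays entered a fit on log2(intensity + 7.83), with day as a factor over 20 arrays (limma 3.58.1 under R 4.3.3, lmFit and eBayes with trend, 10 residual and 8.88 prior degrees of freedom, two-sided). The second contrast was the change over days 3 to 6 minus that over days 0 to 3.

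The members, the 37 lists and the rules were chosen with earlier results of these data known. Named genes are the 12 largest rises and falls whose groups of arrays lay apart and whose call held without each of the 4 arrays. Symbols of clones and predicted genes were left out, which leaves 11 rises. Also named are up to 4 called genes per list and fixed benchmark genes. For the second contrast, up to 6 genes of each sign are named whose call held without each of the 6 arrays. Lists are described by counts and medians, with no list test. Scripts were tested on simulated data. Alternatives were other normalizations, constants, filters, probe set rules, thresholds, no trend, array weights, replicate number as a block, fewer days, and leaving out each array. Arrays give no counts, so their number, 2 a day, limits the precision. Promoters come from RefSeq.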

Additional observations from a re-analysis of the deposited data

Results flagged for a closer look

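The change from day 0 to day 3 and the change from day 3 to day 6 differed for 252 genes in limma's test of the difference itself (adjusted p under 0.05 and a difference of at least 1 on the log2 scale), and this made the result one to look at again. The later change was the more positive in 228 of them. The 2 day 3 arrays enter both changes. Leaving out day 3 replicate 2 took the count to 160. The median SD of replicates was 0.0988 on day 6, below the 0.112 of day 3.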

How the results depend on the processing

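The counts of 27 higher, 67 lower and 252 differing genes depended on the fit. With array weights they became 41, 116 and 442. With days 0 to 14 alone, 102 were lower and 384 differed. A constant at the 40th percentile gave 15 higher and 42 lower, and quantile normalization 31 lower. The adjusted p alone gave 169, 194 and 467, and an adjusted p under 0.01 gave 30 lower and 148 differing. Leaving out 1 of the 20 arrays gave 16 to 30 higher, 24 to 75 lower and 160 to 289 differing. Other alternatives stayed within 1.5 times. With fewer arrays a call needs a larger difference, so a lost call is not by itself a smaller one; beyond that, the cause was not tested. Same-numbered arrays of days 0 and 3 did not deviate together (r = −0.002 over genes), so the numbers do not pair them, and the replicate block gave 29, 65 and 245. None of the 69 named genes changed sign while called. Dim genes, many of them near the constant of 7.83, bear on both counts. With values floored at the pooled median, 18 genes were higher, against 27, and 50 lower, against 67.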

Other observations

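Called genes outside the lists, chosen after their values were seen, include transcripts of blood cells and of later germ cells. Stfa3, a stefin of neutrophils, had 160 and 83.6 on day 0 and 11.6 and 30.8 on day 3 (adjusted p = 0.0482 with limma), and Pglyrp1, a peptidoglycan receptor of neutrophils, 23.3 and 24.7 and then 6.30 and 1.48 (adjusted p = 0.0414). Fabp9, a lipid-binding protein of spermatids, had 24.2 and 18.6 and then 2.82 and 10.6 (adjusted p = 0.00836), and the testis protease gene Adam21 14.7 and 18.5 and then 1.34 and 1.05 (adjusted p = 0.036), both against a pooled median of 34.6. Upk3b, a uroplakin of mesothelium and urothelium, had 51.0 and 79.1 and then 12.6 and 8.80 (adjusted p = 0.0254). In the other direction, C1qtnf3, a secreted relative of complement C1q, had 178 and 188 and then 383 and 432 (adjusted p = 0.027) and 230 and 228 on day 6. None of these 6 calls held without each of the 4 arrays.

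Pnmt, of the adrenal list, overlapped between days 0 and 3, at 248 and 302 and then 231 and 310, and had 41.3 and 45.3 on day 6. Its 2 changes differed by −2.40 ± 0.61 (limma adjusted p = 0.0368). Cdkn2a, the locus of the cell cycle inhibitors p16 and p19, dipped from 26.2 and 24.3 to 9.58 and 1.51 and returned to 26.0 and 23.3, with changes that differed by 2.72 ± 0.62 (limma adjusted p = 0.0194), while its first step alone had an adjusted p = 0.0522. Neither difference held without each of the 6 arrays.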
